A study of Homo sapiens with 16 samples.

Results

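The BCL2 family decides whether a cell opens its outer mitochondrial membrane and dies, and 10 of its genes were followed through 16 RNA libraries. They were listed by name and role: the BH3-only genes PMAIP1, BBC3, HRK, BMF and BCL2L11, the effectors BAX and BAK1, and the anti-apoptotic genes MCL1, BCL2L1 and BCL2. All 10 of the 56865 genes summed were found, and all 10 were among the 15687 genes with enough reads to be tested. The cells were NCI-H1299, a p53-null line from a human non-small cell lung tumour (called Null here), and the same line stably expressing the mutant p53-Y220C (called Y220C). Each line was held for 24 h in DMSO, the vehicle, or in 10 µM MS78, a compound designed to recruit a histone acetyltransferase to p53-Y220C. This gave 4 groups of 4 libraries: Null DMSO and Null MS78, then Y220C DMSO and Y220C MS78. Only the Y220C line was kept in G418, at 500 µg/mL, so a difference between the lines may come with the transgene, with G418 or with the selection of a stable line, which cannot be told apart. Whether the Y220C line is 1 clone, and whether replicates were grown separately, is not in the labels. The p-values therefore speak of the spread among these libraries, which may be technical.

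BAX and BAK1 encode the proteins that form pores in the outer mitochondrial membrane and release cytochrome c. MCL1, BCL2L1 (the gene of BCL-xL) and BCL2 encode guardians that hold the effectors in check. The BH3-only proteins are the killers that stress sends to bind the guardians: NOXA (PMAIP1) binds mainly MCL1, HRK binds mainly BCL-xL, and PUMA (BBC3) and BIM (BCL2L11) bind all of the main guardians. PMAIP1, BBC3 and BAX are classical p53 target genes, and PMAIP1 and BBC3 are also driven by stress pathways that do not need p53. MCL1 protein is short-lived, and RNA levels do not give protein levels for any of these genes.

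Depth was 20.3 M to 27.7 M estimated reads per library. RNA of leukocyte genes was found in 8 libraries: in each line these were DMSO replicate 1 and MS78 replicates 2, 3 and 4. Their PTPRC (CD45, a leukocyte surface protein) reads numbered 55 to 99, against 0 to 1 in the other 8. The 12 leukocyte markers examined summed to 50.8 to 112 CPM (reads relative to the scaled library total) with PTPRC reads and 2.36 to 10.5 CPM without. In each line 3 of 4 MS78 libraries and 1 of 4 DMSO libraries held these reads. Each comparison was therefore also made within the 8 libraries of either kind. A single library of each line then stands for DMSO with PTPRC reads, and for MS78 without them, and is assumed to vary like the rest. The lines under DMSO with PTPRC reads, and under MS78 without them, are compared as 1 library against 1. Passing or not passing in these sets is therefore no test of replicated groups. In a fit with a term for PTPRC reads, no member was called for that term (edgeR adjusted p between 0.892 and 1.000). The genes listed as markers of the lung carcinoma line were EPCAM, CDH1, KRT8, KRT18, VIM and KRT19. Between the lines under MS78 CDH1, KRT8, KRT18 and KRT19 were called higher in Y220C cells and VIM lower, so the sum mixes opposed genes. This sum was 5627 to 6128 CPM in Null DMSO, 5649 to 5820 in Null MS78 and 5861 to 6103 in Y220C DMSO. In Y220C MS78 it was 4142 to 4667 CPM, below the other 12 libraries. Of these 6 genes KRT8, KRT18 and VIM fell with MS78 in Y220C cells (-0.44, -0.38 and -0.41 on the log2 scale), also within the libraries with and without PTPRC reads, and none rose. Their interaction was -0.38, -0.30 and -0.39 (edgeR adjusted p = 8.27e-04, 9.00e-05 and 1.03e-05), and did not pass without PTPRC reads (adjusted p = 0.399, 0.214 and 0.0564). The part of this fall in the changes of the members was not tested.

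Per unit of length, MCL1 was the most abundant of the 10 genes in all 4 groups. Its level was 103 ± 2.2 TPM (a level corrected for transcript length, SD, n = 4) in Null DMSO, 118 ± 2.5 in Null MS78, 117 ± 2.1 in Y220C DMSO and 163 ± 6.3 in Y220C MS78. The next rank depended on the line: BAX was second in Null DMSO (94.9 ± 0.91 TPM), and BCL2L1 was second in Y220C DMSO (99.4 ± 2.8 TPM). Within each of the 4 groups the TPM ranges of MCL1, BAX and BCL2L1 did not overlap. BAK1 and PMAIP1 held ranks 4 and 5 in all 4 groups, in changing order, and their TPM ranges overlapped in Null DMSO only. BBC3 was at rank 6 in all 4 groups, between 9.91 and 14.3 TPM in single libraries. BCL2L11 and BMF followed, and their ranges overlapped in all groups except Null MS78, where BMF overlapped BBC3. HRK and BCL2 came last, HRK between 0.517 and 2.65 TPM and BCL2 between 0.351 and 1.36 TPM. The ranges of these 2 genes overlapped in both Null groups and were apart in both Y220C groups.

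**Figure D1:**
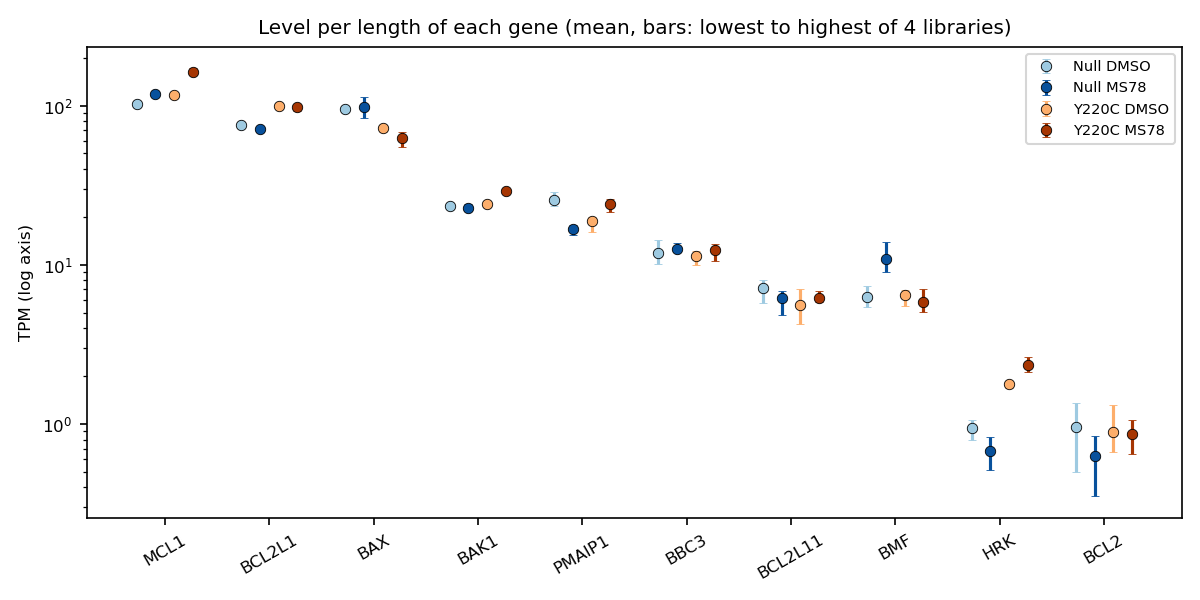
Level per length of the 10 BCL2 family genes in TPM on a log axis, with points for the mean of each group and bars from the lowest to the highest of its 4 libraries. MCL1 is the highest gene in each group, with means from 103 to 163 TPM, while HRK and BCL2 lie lowest, and BAX and BCL2L1 exchange ranks between the lines.

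The first question was which members MS78 moved in each line, and whether the lines responded differently. In Null cells 2 members rose (BMF and MCL1) and 2 fell (PMAIP1 and HRK), in edgeR's quasi-likelihood test at an adjusted p under 0.05. Of all genes tested, 28.1% were called there, 14.8% higher and 13.3% lower. In Y220C cells 4 members rose (PMAIP1, HRK, BAK1 and MCL1) and 1 fell (BAX), a share near the 48.5% of all genes called (24.9% higher, 23.6% lower). The difference between the responses (the line by MS78 interaction) passed for 5 members, PMAIP1, HRK, BAK1 and MCL1 towards Y220C cells and BMF towards Null cells, beside 26.8% of all genes (14.4% and 12.4%). The median log2 fold change of the 10 members was -0.0014 in Null cells and 0.13 in Y220C cells, where that of all genes was 0.0086 and -0.012. By role, the interaction passed for 3 of 5 BH3-only genes, 1 of 2 effectors and 1 of 3 anti-apoptotic genes, so no role moved as a block. Within the 8 libraries with PTPRC reads 3 members passed in Y220C cells and 3 for the interaction, beside 31.7% and 11.3% of all genes, and within the 8 without them 2 and 2, beside 21.3% and 2.51%.

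**Figure D2:**
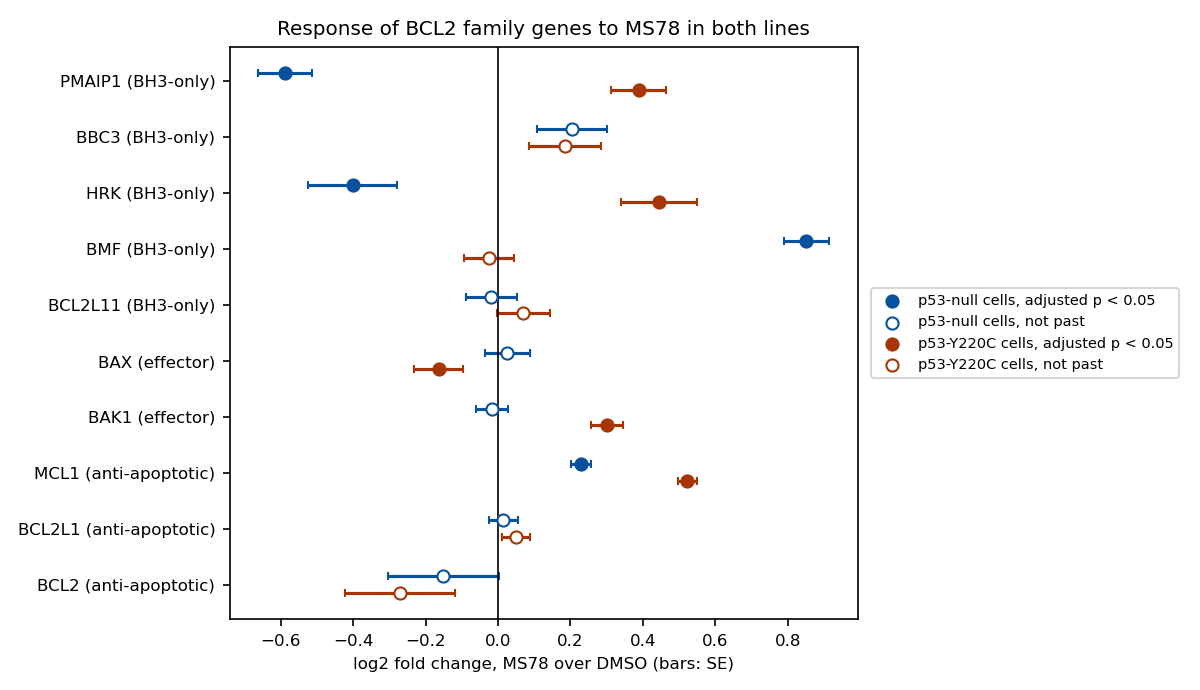
Log2 fold change of MS78 over DMSO in Null (blue) and Y220C (brown) cells for each member, with bars for the SE and filled points for an adjusted p under 0.05. PMAIP1 and HRK have points on opposite sides of 0 in the 2 lines, BMF moves in Null cells (0.85), and MCL1 lies right of 0 in both.

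PMAIP1, the gene of the MCL1 ligand NOXA, moved in opposite directions in the lines. It stood at 29.7, 32.3, 33.1 and 36.8 CPM in Null DMSO and at 23.4, 19.98, 21.8 and 22.9 CPM in Null MS78 (replicates 1 to 4). It stood at 26.0, 27.0, 26.2 and 21.2 CPM in Y220C DMSO and at 30.5, 33.5, 34.5 and 32.7 CPM in Y220C MS78. In both lines each MS78 library lay on 1 side of all DMSO libraries, below them in Null cells and above them in Y220C cells. The fall in Null cells was 1.502-fold (log2 fold change -0.59, SE 0.07, edgeR adjusted p = 3.43e-06). The rise in Y220C cells was 1.31-fold (0.39, SE 0.08, adjusted p = 2.33e-04). The responses differed by 0.98 (SE 0.11, adjusted p = 9.55e-07), and this difference also passed within the libraries with PTPRC reads (0.86, adjusted p = 5.29e-04) and without them (0.85, adjusted p = 0.0372). The rise in Y220C cells alone was 0.31 without PTPRC reads and did not pass there (adjusted p = 0.132). Under DMSO PMAIP1 was 1.32-fold lower in Y220C than in Null cells (-0.40, SE 0.07, adjusted p = 1.54e-04), and under MS78 it was 1.49-fold higher (0.58, SE 0.08, adjusted p = 1.30e-06). The first of these was -0.20 with PTPRC reads and the second was 0.39 without them. Each of these 2 values compares 1 library with 1, so neither is a test of replicated groups.

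HRK, the gene of a ligand of BCL-xL known best from neurons, showed the same opposed pattern at a low level. It had 49 to 118 reads per Null library and 155 to 249 per Y220C library. Its levels were 3.95, 4.31, 3.53 and 4.63 CPM in Null DMSO and 3.15, 3.71, 3.11 and 2.38 CPM in Null MS78, which overlap. In Y220C cells they were 8.18, 7.48, 7.98 and 7.69 CPM in DMSO and 10.2, 12.1, 10.2 and 10.1 CPM in MS78, which do not. HRK fell 1.32-fold in Null cells (-0.40, SE 0.12, adjusted p = 0.0180) and rose 1.36-fold in Y220C cells (0.44, SE 0.11, adjusted p = 0.00151), a difference of 0.85 (SE 0.16, adjusted p = 5.78e-04). The fall did not pass without Null DMSO 4 (adjusted p = 0.0644) or without Null MS78 4 (0.0663). None of these 3 calls passed within the libraries with PTPRC reads (adjusted p 0.354, 0.1098 and 0.109) or without them (0.291, 0.101 and 0.130), with changes of -0.36 and -0.41 in Null and 0.41 and 0.41 in Y220C cells. The line itself had a larger difference: HRK was 1.90-fold higher in Y220C cells under DMSO (0.93, SE 0.11, adjusted p = 8.96e-07) and 3.42-fold higher under MS78 (1.78, SE 0.11, adjusted p = 4.21e-11). Under DMSO the difference of the lines was 1.04 with PTPRC reads (1 library against 1) and 0.89 without them. Under MS78 it was 1.81 with PTPRC reads and 1.70 without them (1 library against 1). No Null library reached the lowest Y220C library.

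**Figure D3:**
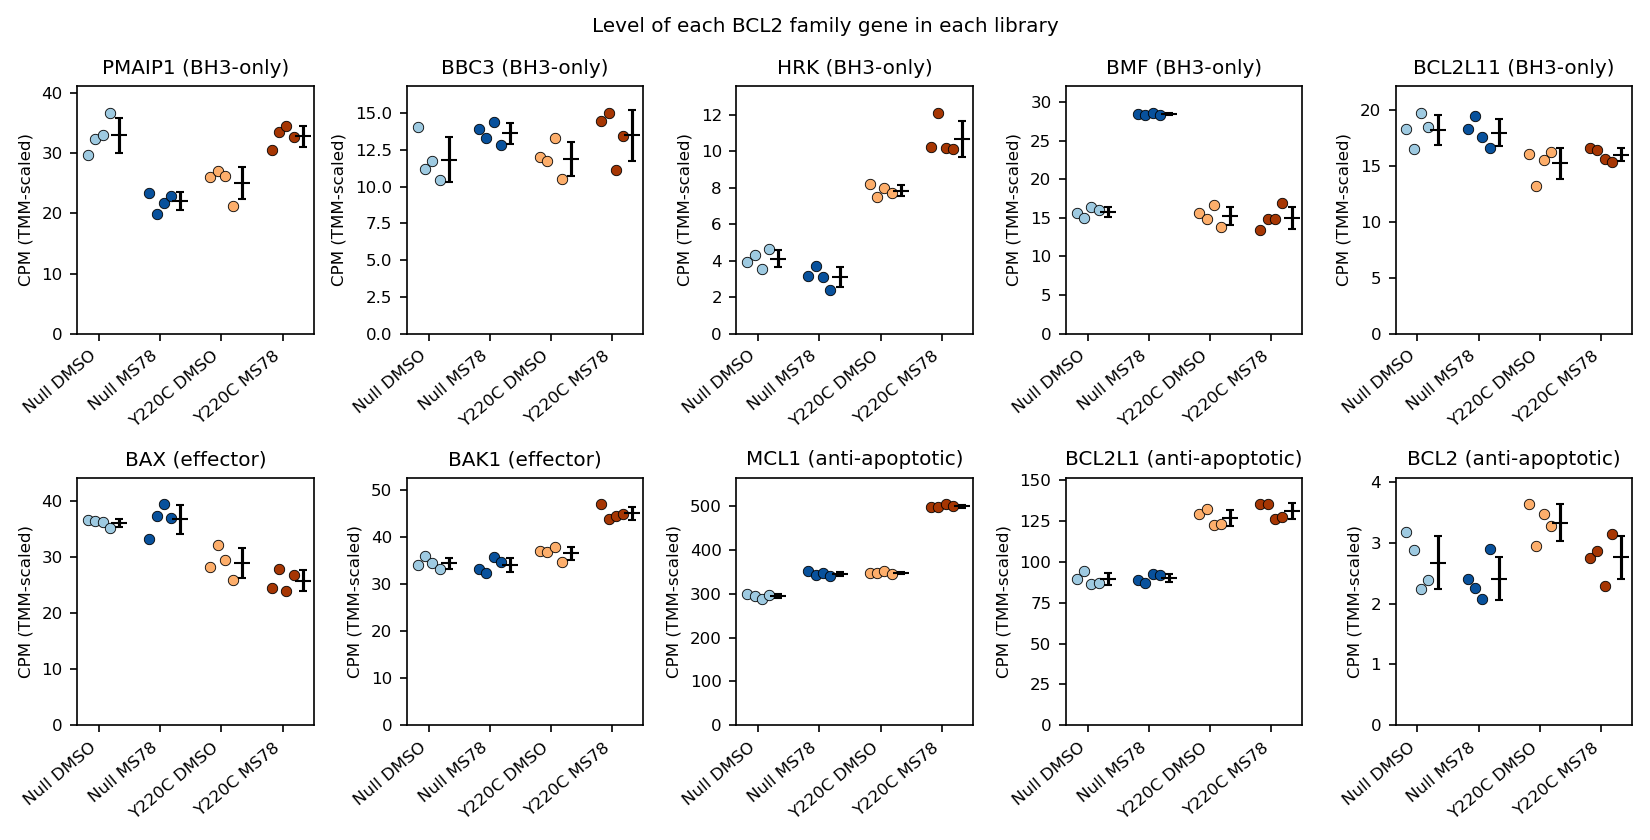
CPM of each member in each library (points, replicates 1 to 4 from left to right) with the mean and SD of each group beside them, on axes that start at 0. PMAIP1 and HRK go down with MS78 in Null cells and up in Y220C cells, BMF is high in Null MS78 alone (28.3 to 28.6 CPM), and MCL1 is highest in Y220C MS78 (497 to 505 CPM).

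The start regions of these 2 genes are shown because both moved in opposite directions in the lines and both hold the letters TGACG, the core of the element that ATF and CREB factors bind. RefSeq (GRCh38.p14) gave a promoter window around the start for 9 of the 10 members. PMAIP1 is at chromosome 18, 59899948 to 59904306 (plus strand, GENCODE 29), and HRK at chromosome 12, 116856144 to 116881441 (minus strand). The windows are written 5′ to 3′ on the strand of the gene, with the core in capitals as it reads there, that is CGTCA, since TGACG lies on the other strand.
PMAIP1, chr18:59899929-59899958: ctagtttccctaCGTCAccagggaagttct
HRK, chr12:116881440-116881469: taataatagcgcCGTCAgcacaacaaacgc
Counted from 0 at the RefSeq start, the core lies at -55 to -51 in PMAIP1 and at -16 to -12 in HRK. On either strand TGACG was found in 4 of the 9 member promoters (PMAIP1, HRK, BAX and BCL2) and in 24.6% of the 35116 promoters of the same length. BAX and BCL2, which hold these letters too, showed no opposed changes past the threshold. The AP-1 letters TGANTCA, searched on both strands, were found in BBC3 alone of the 9 and in 7.71% of all promoters. Other motifs were searched in the same way. PMAIP1 and HRK also shared the GC box GGGCGG, found in 6 of the 9 and in 45% of all promoters. A p53 half-site was found in BAK1 alone of the 9 and in 6.63% of all promoters. The CCAAT box was in 4 of the 9 (34.6% of all promoters), the E-box CACGTG in 2 (7.26%) and the heat shock element in 0 (0.49%). A match describes letters only and is no evidence of binding.

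BMF, whose protein is held at the cytoskeleton until it is released to bind the guardians, responded in Null cells. It stood at 15.6, 14.96, 16.5 and 16.01 CPM in Null DMSO and at 28.5, 28.3, 28.6 and 28.3 CPM in Null MS78. In Y220C cells it stood at 15.7, 14.8, 16.7 and 13.9 CPM in DMSO and at 13.5, 14.8, 14.8 and 16.9 CPM in MS78. All 4 Null MS78 libraries lay far above the other 12, and the ranges of the other 3 groups overlapped. The rise in Null cells was 1.80-fold (0.85, SE 0.06, adjusted p = 1.11e-09), against -0.03 in Y220C cells (SE 0.07, 95% interval -0.17 to 0.12, adjusted p = 0.787). The responses differed by -0.88 (SE 0.09, adjusted p = 6.60e-07), and the difference passed with PTPRC reads (-0.86, adjusted p = 0.00190) and without them (-1.01, adjusted p = 0.0119). The difference between the lines under DMSO was -0.05 (95% interval -0.19 to 0.099, adjusted p = 0.592), and BMF was 1.90-fold lower in Y220C cells under MS78 (-0.92, SE 0.06, adjusted p = 1.26e-10).

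BBC3, the gene of PUMA and a classical p53 target, did not pass in any of the 5 comparisons. Its CPM was 10.4 to 14.0 in Null DMSO, 12.8 to 14.4 in Null MS78, 10.5 to 13.3 in Y220C DMSO and 11.1 to 15.04 in Y220C MS78. All 4 ranges overlapped. The log2 fold change with MS78 was 0.20 in Null cells (95% interval -0.0088 to 0.42, adjusted p = 0.134) and 0.18 in Y220C cells (-0.033 to 0.40, adjusted p = 0.136), and the responses differed by -0.019 (-0.32 to 0.29). Among Null libraries the BBC3 value was of the other sign with PTPRC reads (-0.065, adjusted p = 0.834) and stood at 0.32 without them (adjusted p = 0.242). It passed with 1 library left out, without Null DMSO 1 in Null cells (0.30, adjusted p = 0.0266) and without Y220C MS78 3 in Y220C cells (0.27, adjusted p = 0.0291). The quantifier divided BBC3 reads unevenly: BBC3-203 (579 coding bases) held 31.1% to 87.1% of the gene's TPM in single libraries and BBC3-202 (393 coding bases) 0% to 50.4%, with wide spread inside every group.

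BCL2L11, the gene of BIM, showed no response past the threshold in either line. Its log2 fold change was -0.018 in Null cells (95% interval -0.17 to 0.13) and 0.07 in Y220C cells (-0.091 to 0.23). It was lower in Y220C than in Null cells under DMSO, at 13.2 to 16.2 against 16.5 to 19.8 CPM (-0.26, SE 0.07, adjusted p = 0.00506). That difference did not pass with length-scaled TPM in place of reads (-0.32, adjusted p = 0.0775). It was -0.20 with PTPRC reads, where 1 library stood against 1, and -0.28 without them. Under MS78 the ranges overlapped (15.4 to 16.6 against 16.6 to 19.5 CPM) and the difference of -0.17 was close to the threshold (adjusted p = 0.0463). With the replicate number as a block it did not pass in the fit of 16 libraries (adjusted p = 0.0582) and passed in a fit of the 8 libraries compared (adjusted p = 0.0360), and with length-scaled TPM the sign turned (0.055, adjusted p = 0.766). The call was also lost with DESeq2 (adjusted p = 0.0710) and on leaving out any 1 library but Null MS78 4 (adjusted p 0.0517 to 0.160). A long non-coding gene on the opposite strand, MIR4435-2HG, overlaps BCL2L11 and stood at 27.2 to 33.2 CPM. Whether reads were counted by strand is not given in the sources used here, so reads of the overlap cannot be assigned with certainty.

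The effectors did not move together. BAK1 had log2 fold change -0.017 in Null cells (95% interval -0.11 to 0.081), where the DMSO libraries stood at 34.1, 36.0, 34.5 and 33.2 CPM and the MS78 libraries at 33.2, 32.4, 35.8 and 34.8 CPM. In Y220C cells it went from 37.0, 36.8, 37.9 and 34.7 CPM in DMSO to 47.1, 43.8, 44.6 and 44.9 CPM in MS78. Every Y220C MS78 library was above every other library. The rise was 1.23-fold (0.30, SE 0.04, adjusted p = 1.05e-05) and passed with and without PTPRC reads (0.27 and 0.37, adjusted p = 0.0119 and 0.0115). The responses differed by 0.32 (SE 0.06, adjusted p = 8.09e-04), but this difference did not pass with PTPRC reads (0.28, adjusted p = 0.114) or without them (0.43, adjusted p = 0.107). BAK1 was 1.32-fold higher in Y220C than in Null cells under MS78 (0.41, SE 0.04, adjusted p = 1.14e-07), and under DMSO it did not pass (0.087, 95% interval -0.011 to 0.19, adjusted p = 0.114) unless Y220C DMSO 4 was left out (0.12, adjusted p = 0.0482).

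BAX, a classical p53 target, was lower in Y220C than in Null cells and showed no rise past the threshold with MS78. It stood at 36.6, 36.3, 36.2 and 35.1 CPM in Null DMSO and at 33.1, 37.3, 39.4 and 37.0 CPM in Null MS78. It stood at 28.2, 32.2, 29.4 and 25.8 CPM in Y220C DMSO and at 24.5, 27.8, 23.9 and 26.7 CPM in Y220C MS78. Every Y220C library was below every Null library. The lines differed 1.25-fold under DMSO (-0.32, SE 0.06, adjusted p = 2.82e-04) and 1.42-fold under MS78 (-0.51, SE 0.06, adjusted p = 8.91e-07). Under DMSO the difference was -0.39 with PTPRC reads (1 library against 1) and -0.30 without them. Under MS78 it was -0.53 with PTPRC reads and -0.43 without them (1 library against 1). The change with MS78 was 0.025 in Null cells (95% interval -0.11 to 0.16). In Y220C cells it was -0.16 (SE 0.07, adjusted p = 0.0492), with overlapping groups, and this call was lost under 11 alternatives, among them DESeq2 (adjusted p = 0.0558) and leaving out any 1 of 6 libraries (Y220C DMSO 1, 2 or 3, or Y220C MS78 1, 3 or 4, adjusted p 0.0530 to 0.187). The responses differed by -0.19 (adjusted p = 0.136), or by -0.24 without Y220C DMSO 4 (adjusted p = 0.0460).

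MCL1, the guardian that NOXA binds, rose with MS78 in both lines and more in Y220C cells. It stood at 300.4, 294, 289 and 297 CPM in Null DMSO and at 352, 344, 347 and 341 CPM in Null MS78. It stood at 347, 347, 352 and 346 CPM in Y220C DMSO and at 497, 497, 505 and 501 CPM in Y220C MS78. Null MS78 and Y220C DMSO overlapped, Null DMSO lay below them and Y220C MS78 above. The rise was 1.17-fold in Null cells (0.23, SE 0.03, adjusted p = 1.18e-06) and 1.44-fold in Y220C cells (0.52, SE 0.03, adjusted p = 1.67e-12), and both passed with and without PTPRC reads. The responses differed by 0.29 (SE 0.04, adjusted p = 8.62e-06), which passed with PTPRC reads (0.35, adjusted p = 0.00339) and not without them (0.26, adjusted p = 0.155). The Y220C line had 1.18-fold more MCL1 under DMSO (0.24, SE 0.03, adjusted p = 3.53e-07) and 1.44-fold more under MS78 (0.53, SE 0.03, adjusted p = 9.16e-13).

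BCL2L1 and BCL2 did not pass for MS78 in either line. BCL2L1 stood at 86.5 to 94.4 CPM in Null DMSO and 87.4 to 92.6 in Null MS78, and at 123 to 132 CPM in Y220C DMSO and 127 to 136 in Y220C MS78. The log2 fold change with MS78 was 0.014 in Null cells (95% interval -0.073 to 0.10) and 0.050 in Y220C cells (-0.036 to 0.14). Between the lines all Y220C libraries were above all Null libraries, by 1.42-fold under DMSO (0.50, SE 0.04, adjusted p = 1.96e-09) and 1.45-fold under MS78 (0.54, SE 0.04, adjusted p = 3.06e-10). ABALON, a gene on the opposite strand within BCL2L1, stood at 2.76 to 5.63 CPM. BCL2 had 44 to 85 reads per library and log2 fold changes of -0.15 (95% interval -0.48 to 0.18) and -0.27 (-0.60 to 0.060) with MS78 in Null and Y220C cells. Its difference between the lines under DMSO was 0.32 (adjusted p = 0.0823) and passed only without Null DMSO 1 (0.42, adjusted p = 0.0382).

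In the comparison of the lines as a whole, 6 of 10 members passed under DMSO, 3 higher in Y220C cells (HRK, MCL1 and BCL2L1) and 3 lower (PMAIP1, BCL2L11 and BAX), beside 50.2% of all genes tested (24.7% higher, 25.5% lower). Under MS78 8 of 10 passed, 5 higher (PMAIP1, HRK, BAK1, MCL1 and BCL2L1) and 3 lower (BMF, BCL2L11 and BAX), beside 61.8% of all genes (30.7% higher, 31.2% lower). MCL1 and BCL2L1 were higher in the Y220C line under both treatments.

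Ratios of TPM set a ligand or effector beside its guardian in the same library, and are given as a description. PMAIP1 stood at 24.7% of MCL1 in Null DMSO and at 14.2% in Null MS78 (log2 ratio -2.02 ± 0.13 and -2.82 ± 0.12, SD, n = 4). In Y220C cells the ratio was 16.1% in DMSO and 14.9% in MS78 (-2.64 ± 0.17 and -2.75 ± 0.09), where both genes rose, and the ranges overlapped. BAX stood at 126% of BCL2L1 in Null DMSO and 138% in Null MS78, and at 72.3% and 63.7% in the Y220C groups, where no library reached the lowest Null library. BAK1 stood at 24.8%, 23.3%, 33.6% and 46.6% of BAX in Null cells with DMSO and MS78 and in Y220C cells with DMSO and MS78.

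Alternative splicing can turn both main guardians into killers: MCL1 without its exon 2 and BCL2L1 cut at an upstream donor site (BCL-xS) encode short proteins known to promote death. The junctions are shown because they are what tells the forms apart. Each is 30 bases of the GENCODE 29 transcript, 15 on either side, 5′ to 3′, with the downstream exon in capitals.
MCL1-202, exon 1 to 2: agacggccttccaagGCATGCTTCGGAAAC
MCL1-202, exon 2 to 3: aaacaaagaggctggGATGGGTTTGTGGAG
MCL1-201, exon 2 skipped: agacggccttccaagGATGGGTTTGTGGAG
BCL2L1-201, long form: gagaacggcggctggGATACTTTTGTGGAA
BCL2L1-202, short form: cagagctttgaacagGATACTTTTGTGGAA
MCL1 lies at chromosome 1, 150574551 to 150579738, and BCL2L1 at chromosome 20, 31664452 to 31723989, both on the minus strand of GRCh38. The exon skipped in MCL1-201 has 248 bases, from 150578491 down to 150578244, and the upstream donor of BCL2L1-202 lies 189 bases before that of BCL2L1-201. The long forms encode 350 (MCL1-202) and 233 residues (BCL2L1-201), the short forms 271 and 170.

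Full-length MCL1 made up nearly all of the gene's TPM in each library. Its share was 95.7% ± 0.63 in Null DMSO, 95.2% ± 1.3 in Null MS78, 95.7% ± 0.95 in Y220C DMSO and 95.8% ± 0.55 in Y220C MS78 (SD, n = 4). The exon-skipped MCL1-201 held 0.578% ± 0.40, 0.581% ± 0.49, 0.902% ± 0.21 and 0.491% ± 0.26 in that order, from 1.93 to 21.6 reads per library. Another shorter form, MCL1-204 (197 residues), held 2.31%, 2.41%, 1.86% and 2.35%. The last exon has 422 bases in the model of MCL1-201 and 2936 in that of MCL1-202, so the shares depend on these models. The share of full-length MCL1 differed by -0.42 percentage points with MS78 in Null cells (exact permutation p = 0.543, adjusted over 8 share tests 0.869) and by 0.089 points in Y220C cells (exact p = 0.943, adjusted 0.971), less than the spread between libraries. Neither sign was stable: leaving out 1 library gave -0.80 to 0.0069 points in Null cells, positive without Null MS78 2, and -0.32 to 0.35 in Y220C cells, and the Null value was 1.02 points without PTPRC reads. The level of the full-length transcript went from 98.5 ± 2.7 to 113 ± 1.6 TPM in Null and from 112 ± 1.3 to 156 ± 5.4 TPM in Y220C cells.

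For BCL2L1 the transcripts with a complete long coding sequence held 49.9% ± 1.1 of the TPM in Null DMSO, 53.9% ± 3.1 in Null MS78, 52.9% ± 0.83 in Y220C DMSO and 54.6% ± 2.3 in Y220C MS78. Most of the remainder, 47.8%, 43.6%, 44.8% and 42.1%, was given to models with an incomplete coding sequence, which name neither form. The short form BCL2L1-202 held 2.28% ± 1.0, 2.51% ± 0.49, 2.34% ± 0.76 and 3.24% ± 0.68. Null and Y220C libraries did not overlap in the long share under DMSO (48.6% to 51.1% against 52.3% to 54.1%, exact permutation p = 0.0286, the smallest that 4 against 4 allows), but the adjusted p over 8 tests was 0.229. With MS78 the long share differed by 4.00 points in Null cells (exact p = 0.0857, adjusted 0.343) and by 1.72 points in Y220C cells (exact p = 0.257, adjusted 0.686). The Null value was 0.27 points within the libraries without PTPRC reads and 2.95 to 5.37 points with 1 library left out, and the Y220C value was 0.73 to 2.51 points with 1 library left out, lowest without Y220C MS78 2. Among complete coding transcripts alone the long share was 94.4% to 95.8% in the 4 groups. In edgeR's diffSpliceDGE test of 42094 transcripts no transcript of MCL1, BCL2L1 or BBC3 was called in the 4 comparisons of 2 groups, where 0.366% to 1.10% of all transcripts were.

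**Figure D4:**
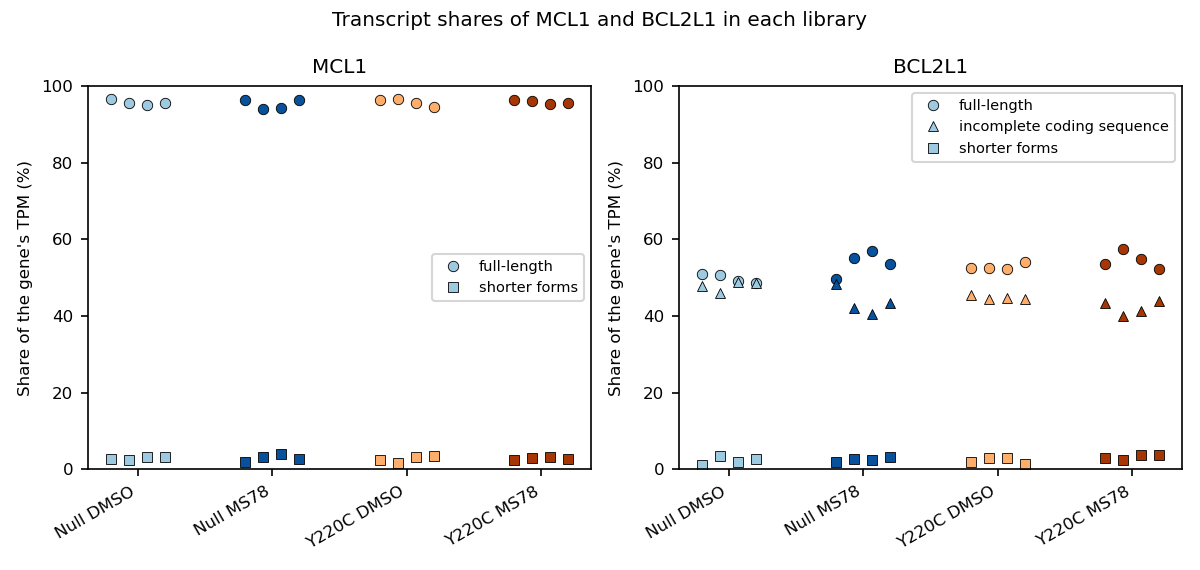
Share of the gene's TPM, in percent, held by each class of transcript of MCL1 (left) and BCL2L1 (right) in each library. Full-length MCL1 lies at 94.0% to 96.5% in every library, and BCL2L1 is split between full-length transcripts (48.6% to 57.6%) and models with an incomplete coding sequence (40.01% to 48.9%).

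Genes around the family were described from lists, whose counts stand beside 14.8% of all genes higher and 13.3% lower with MS78 in Null cells, and 24.9% and 23.6% in Y220C cells. Of 14 other family genes 10 were tested, and 3 rose in Null cells (BNIP3, BNIP3L and BCL2L2) and 1 in Y220C cells (BNIP3L), with none falling. BNIP3 and BNIP3L encode receptors that send mitochondria to autophagy. BNIP3 went from 58.6 ± 20 to 104 ± 3.1 CPM in Null cells (0.82, SE 0.13, adjusted p = 5.87e-05) and from 73.9 ± 2.1 to 78 ± 3.6 CPM in Y220C cells (0.08, adjusted p = 0.657), a difference of -0.75 (adjusted p = 0.00519). Without PTPRC reads the rise in Null cells was 0.84 and the difference -0.71, and neither passed (adjusted p = 0.105 and 0.423). BNIP3L rose in both lines (0.47 and 0.36), though in Y220C cells not without PTPRC reads (0.36, adjusted p = 0.0572). BCL2L2 shares sequence with a readthrough gene, so its value is uncertain, and its call was lost with PTPRC reads (adjusted p = 0.159), without them (0.0983) and without Null MS78 1 (0.0625). The median of the 10 was 0.057 in Null and -0.047 in Y220C cells.

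Of 14 tested transcription factors known to act on BH3-only promoters, 3 rose and 8 fell in Null cells, and 11 rose and 2 fell in Y220C cells, with medians of -0.24 and 0.44. The shares of all genes were again 14.8% and 13.3%, then 24.9% and 23.6%. Within the libraries without PTPRC reads the medians were -0.22 in Null cells and 0.61 in Y220C cells. ATF3, a stress factor of the ATF and CREB family, went from 9.45 ± 1.2 to 5.64 ± 0.58 CPM in Null cells (-0.74, SE 0.10, adjusted p = 1.07e-05) and from 9.13 ± 1.1 to 44.9 ± 2.5 CPM in Y220C cells (2.29, SE 0.09, adjusted p = 1.12e-14). JUN, a subunit of AP-1, fell slightly in Null cells (-0.23, adjusted p = 0.00118) and rose 5.77-fold in Y220C cells (2.53, SE 0.05, adjusted p = 5.27e-20). In Null cells neither passed without PTPRC reads (ATF3 -0.70, adjusted p = 0.0511, and JUN -0.20, adjusted p = 0.236). EGR1, an immediate early factor, rose in both, 2.08-fold and 12.4-fold. ATF4 and DDIT3 (the gene of CHOP), chosen after their values were seen, fell in Null cells (-0.32 and -0.69) and rose in Y220C cells (0.19 and 1.09), the same signs as PMAIP1 and HRK. The rise of ATF4 did not pass within the libraries with PTPRC reads (0.14, adjusted p = 0.0923). Whether any of these factors had a part in the changes of PMAIP1 or HRK was not tested.

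Of 10 tested genes for the ubiquitin ligases and deubiquitinases of MCL1 and its partners, 2 rose in Null cells, and 2 rose and 3 fell in Y220C cells (medians 0.040 and 0.050), beside 14.8% of all genes higher in Null cells and 24.9% higher and 23.6% lower in Y220C cells. Without PTPRC reads the medians were 0.037 in Null cells and -0.050 in Y220C cells. USP9X, a deubiquitinase that stabilises MCL1, rose in both lines, from 192 ± 7.8 to 224 ± 11 CPM (0.22, adjusted p = 0.00231) and from 238 ± 18 to 281 ± 13 CPM (0.24, adjusted p = 4.49e-04). In Null cells this did not pass with PTPRC reads (0.17, adjusted p = 0.0600) or without them (0.29, adjusted p = 0.105), and in Y220C cells not without them (0.15, adjusted p = 0.312). DESI1, STUB1 and USP13 fell in Y220C cells (-0.28, -0.27 and -0.24). Without PTPRC reads their adjusted p was 0.164, 0.551 and 0.0812, and USP13 did not pass with PTPRC reads (0.0863) or length-scaled TPM (0.345) either.

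Of 18 tested RNA-binding proteins of MCL1 or BCL2L1 splicing, none rose and 9 fell in Null cells, and 4 rose and 10 fell in Y220C cells (medians -0.082 and -0.10). Of all genes 13.3% fell in Null cells, and 24.9% rose and 23.6% fell in Y220C cells. Without PTPRC reads the medians were -0.088 in Null cells and -0.080 in Y220C cells. SRSF2 (-0.27 and -0.25), SRSF10 (-0.26 and -0.27) and HNRNPH1 (-0.19 and -0.38) fell in both lines, and SRSF5 fell in Y220C cells (-0.47, SE 0.05, adjusted p = 1.71e-07). In Null cells SRSF2, SRSF10 and HNRNPH1 did not pass without PTPRC reads (adjusted p = 0.108, 0.0623 and 0.0863), and in Y220C cells SRSF2 did not pass there (-0.20, adjusted p = 0.0538) or with length-scaled TPM (-0.0996, adjusted p = 0.440).

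Of 11 tested mitochondrial pore and release genes, 1 rose and 3 fell in Null cells, and 3 rose and 4 fell in Y220C cells (medians -0.064 and 0.028), beside 28.1% and 48.5% of all genes called. Among them HTRA2, a protease released from mitochondria, fell in both (-0.20 and -0.33), VDAC1, an outer membrane channel, fell in Y220C cells (-0.25), and CYCS, the gene of cytochrome c, rose in Y220C cells (0.20, adjusted p = 1.97e-04). The fall of HTRA2 in Null cells did not pass with PTPRC reads (-0.14, adjusted p = 0.307) or without them (-0.27, adjusted p = 0.0753), and CYCS did not pass without them (0.23, adjusted p = 0.0768). The 13 mitochondrially encoded protein genes summed to 28899 to 40191 CPM per library, and 6 rose and 1 fell with MS78 in Y220C cells, beside 24.9% and 23.6% of all genes. In Null cells 3 fell and none rose, beside 13.3% and 14.8%, and the interaction passed for 5 of the 13, all higher, beside 14.4% of all genes. The median interaction of the 13 was 0.22 in all libraries and 0.16 without PTPRC reads.

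The protein-coding genes whose log2 CPM followed PMAIP1 most closely over the 16 libraries were SLC39A14 (Pearson r 0.903), OGFOD1 (0.894) and NUDCD1 (0.882), and those for MCL1 were UGCG (0.996), EIF1AD (0.995) and STX3 (0.995). SLC39A14, a metal ion transporter gene, averaged 118, 90.2, 93.7 and 120.3 CPM in Null cells with DMSO and MS78 and in Y220C cells with DMSO and MS78. UGCG, the gene of glucosylceramide synthase, averaged 47.8, 68.1, 69.9 and 191 CPM. These values describe libraries that share groups and treatment, and the genes were picked as the highest of all tested.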

How the data were processed

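Poly(A) RNA of 16 libraries was analysed. The deposited tables hold estimated counts and TPM per transcript, made by the authors with the columns that Salmon writes, per the file headers. The build was hg38 and read quality was examined with FastQC 0.11.8, per the submitters' processing notes. Not given in the sources used here are the quantifier's version, its annotation and its strand setting. Of 197653 transcripts, 193348 (97.82%) matched GENCODE 29 (GRCh38), and the others, 0.278% to 0.325% of reads, were left out. Estimated counts were summed per gene and rounded.

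All p-values called adjusted are from edgeR 4.0.16 (R 4.3.3) unless a permutation test is named: filterByExpr, TMM, 1 quasi-likelihood fit of 16 libraries with 12 residual degrees of freedom, Benjamini-Hochberg over 15687 genes within a comparison, threshold 0.05. Levels are CPM on TMM-scaled totals. SE is the log2 fold change over the square root of F. Intervals are 95% and cover the spread between libraries. The t quantile of the intervals came from scipy 1.17.1. Shares are of the gene's TPM, tested by exact two-sided permutation in Python 3.11.15 with numpy 2.4.6. The scripts were tested on simulated data. No library repeated another: within groups the chi-square of a pair was 2.53 to 11.3 per gene. Same-numbered libraries deviated together in the comparison of the lines under MS78 (correlations 0.15 to 0.531). Under DMSO the correlations between the lines were 0.452, 0.175, -0.057 and 0.148. The number was taken to pair libraries only where every correlation was over 0.1, which left out the DMSO libraries by 1 pair. Same-numbered libraries of the lines also held or lacked PTPRC reads together, so the correlations alone cannot settle pairing. The block was run as an alternative. Other alternatives were DESeq2 1.42.0, RLE factors, length-scaled TPM, other filters, libraries left out and the sets by PTPRC reads. Members and lists were chosen with earlier results of these data known. Beside the members, up to 4 genes per list with the largest change past 0.05 and at least 1 CPM were taken, and fewer are named. The level of the gene of the transgene is not reported here.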

Additional observations from a re-analysis of the deposited data

Results flagged for a closer look

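The responses of 5 members to MS78 differed between the lines in the interaction test, by 0.98 for PMAIP1, 0.85 for HRK, -0.88 for BMF, 0.32 for BAK1 and 0.29 for MCL1 on the log2 scale (Y220C minus Null). PMAIP1 stood at 21.2 CPM in Y220C DMSO 4, apart from the 26.0 to 27.0 CPM of the other 3 libraries of its group. HRK stood at 12.1 CPM in Y220C MS78 2, where the other 3 libraries stood at 10.1 to 10.2 CPM. These were 2 of 48 groups of 4 libraries examined for a library far from the others, and chance gives about 1 in 20.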

How the results depend on the processing

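Of 950 values of single members under the alternatives, 867 kept their direction and side of the threshold, 37 turned sign without passing either way, 40 lost the call, 5 gained one and 1 reversed. Reversed were BCL2L11 (0.055) and SRSF2 (0.12), both between the lines under MS78 with length-scaled TPM, and the cause was not tested. Within the libraries with and without PTPRC reads, 3 and 2 members passed in Y220C cells and 3 and 2 for the interaction, against 5 and 5. Fewer libraries enter these fits, and all genes called then fell from 4402 to 2346 and 1070 in Null cells, from 7611 to 3490 without PTPRC reads in Y220C cells, and from 4197 to 1870 and 411 for the interaction. Between the lines they fell from 7875 to 3817 under DMSO with PTPRC reads and from 9699 to 4184 under MS78 without. With length-scaled TPM 2848 genes were called in Null cells and 2751 for the interaction. The full-length share of MCL1 with MS78 in Null cells was 1.02 points without PTPRC reads, against -0.42. That of BCL2L1 was 0.27 points without PTPRC reads, against 4.00. Between the lines it was 1.43 points under DMSO with PTPRC reads, against 3.01, and 3.93 points under MS78 without, against 0.73. The cause was not tested. Leaving out 1 library gave 3 to 5 members in Null cells, 4 to 5 in Y220C cells, 5 to 6 for the interaction, and 6 to 7 and 7 to 8 between the lines. The replicate block ended 1 member's call, that of BCL2L11 between the lines under MS78 (adjusted p = 0.0582), and changed no other member's call. Same-numbered DMSO and MS78 libraries had correlations of -0.502 to -0.042. In each such pair 1 library held PTPRC reads and the other did not, so these correlations cannot tell whether the libraries were paired.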
